A study of Mus musculus with 10 samples.

Results

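Interferon-stimulated genes are the genes that a cell switches on after an interferon has bound its receptor, and 38 of them were followed here in mouse livers edited at Bap1 and injured with carbon tetrachloride (CCl4). The 38 were the genes whose symbols stood on a given list of type I interferon response genes and matched a symbol in the deposited count table. All 38 were found among its 55291 symbols, and all 38 were among the 17015 genes with enough counts to be tested. Female mice with a Cas9 allele behind a Lox-Stop-Lox cassette, 16 to 20 weeks old, received by tail vein an AAV8 vector with a guide RNA under the U6 promoter and Cre under the TBG promoter, which is active in hepatocytes. The guide was a non-targeting control (NTC) or guide BAP1-2 against Bap1 (sgBap1), so by design editing was directed at hepatocytes and not at the other cells of the liver. At day 10 each mouse was given 10 µL per g of body weight intraperitoneally, either olive oil alone (Veh) or 1 part CCl4 in 9 parts olive oil, and the liver was taken 48 h later. Stranded mRNA libraries of the right lobe came from 10 livers, 2 of each genotype with Veh and 3 of each with CCl4, named NTC-Veh, sgBap1-Veh, NTC-CCl4 or sgBap1-CCl4 below. All 4 groups carried the Cas9 allele and received the vector, and all were injected with oil.

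Type I interferons bind a receptor made of IFNAR1 and IFNAR2, whose kinases JAK1 and TYK2 phosphorylate STAT2. This joins IRF9 in a complex that binds the interferon-stimulated response element in the promoters of genes whose products sense, bind, degrade or edit viral RNA, while interferon gamma acts through a separate receptor and a different element. In the liver, hepatocytes, Kupffer cells and endothelial cells all respond to interferon, and the response is best known from infection with hepatitis viruses.

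The libraries held 46.74 and 42.42 M counts (1 M is 1e6) in the NTC-Veh livers and 44.44 and 33.05 M in the sgBap1-Veh livers. They held 41.5, 47.3 and 33.32 M in the NTC-CCl4 livers and 52.2, 47.34 and 43.45 M in the sgBap1-CCl4 livers. Levels are counts per 1e6 counts (CPM) after scaling by trimmed mean of M-values (TMM), and 3 counts, the limit that a count of 0 allows, came to between 0.0511 and 0.112 CPM. This limit covers counting error only. The members took between 0.0910% and 0.266% of a library. A gene was called when its adjusted p, from edgeR over all genes tested, was under 0.05. The p-values measure the spread between these livers, and a range after a value runs from its lowest to its highest with 1 liver left out. Changes are log2 fold changes, given with their standard error (SE) after the ± sign, and values within a group are listed by replicate number, which carries no order.

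The defining markers of hepatocytes were present in every liver, with Alb the most abundant at 116125 and 92903 CPM in NTC-Veh livers and 60736, 66719 and 58159.8 CPM in NTC-CCl4 livers. The summed level of 8 hepatocyte markers was 164693 and 133114 CPM in NTC-Veh livers, 118854 and 125930.0 in sgBap1-Veh, 77568, 84468 and 73993 in NTC-CCl4 and 86696, 67871 and 87035 in sgBap1-CCl4 livers. It was lower in each CCl4 liver than in any vehicle liver, and in bulk tissue fewer cells of a type cannot be told apart from less RNA per cell. The liver of sgBap1-CCl4 replicate 2 stood apart in genes of fat cells. The fat-cell gene Cfd was at 0 in the other 9 livers and at 144 CPM there, Adipoq was at 36.3 CPM there against at most 0.0425 elsewhere, and the sum of 6 fat-cell markers was 289 CPM against 14.8, 14.8 and 15.4 CPM in NTC-CCl4 livers. The main counts and medians of the members are therefore also given without that liver. Why it differs was not tested.

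Bap1 encodes a deubiquitinase that acts on histone H2A, and its level was read to check the groups. It stood at 34.8 and 34.8 CPM in NTC-Veh livers and at 17.5 and 19.5 CPM in sgBap1-Veh livers. With CCl4 it stood at 30.1, 31.5 and 29.5 CPM in NTC livers and at 17.0, 21.8 and 19.1 CPM in sgBap1 livers. Every sgBap1 liver was below every NTC liver, with a change of -0.91 ± 0.12 under vehicle (adjusted p 0.0208) and of -0.65 ± 0.10 under CCl4 (adjusted p 0.0295). Without sgBap1-CCl4 replicate 2 the change under CCl4 was -0.75. The call under vehicle was lost without NTC-Veh replicate 1 (-0.92), NTC-Veh replicate 2 (-0.91), sgBap1-Veh replicate 1 (-0.84) or sgBap1-Veh replicate 2 (-0.99), the change being given in brackets. The call under CCl4 was lost without NTC-Veh replicate 1 (-0.65), NTC-Veh replicate 2 (-0.65), NTC-CCl4 replicate 1 (-0.66), NTC-CCl4 replicate 2 (-0.63), NTC-CCl4 replicate 3 (-0.67) or sgBap1-CCl4 replicate 1 (-0.57).

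To follow the members together, each gene's log2 ratio to its mean over the NTC-Veh livers was taken in every liver and the median over the 38 was formed. This median was 0.05 and -0.05 in NTC-Veh livers and 0.19 and 0.47 in sgBap1-Veh livers. It was 1.37, 0.92 and 0.89 in NTC-CCl4 livers and 1.00, 0.78 and 0.83 in sgBap1-CCl4 livers. The median was higher in each CCl4 liver than in any vehicle liver and higher in both sgBap1-Veh livers than in either NTC-Veh liver, while the NTC-CCl4 and sgBap1-CCl4 livers overlapped, with NTC-CCl4 replicate 1 the highest. The SD of this median within groups, pooled over the groups, was 0.20, and over all genes tested the median lay between 0.00 and 0.04 in every liver.

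**Figure D1:**
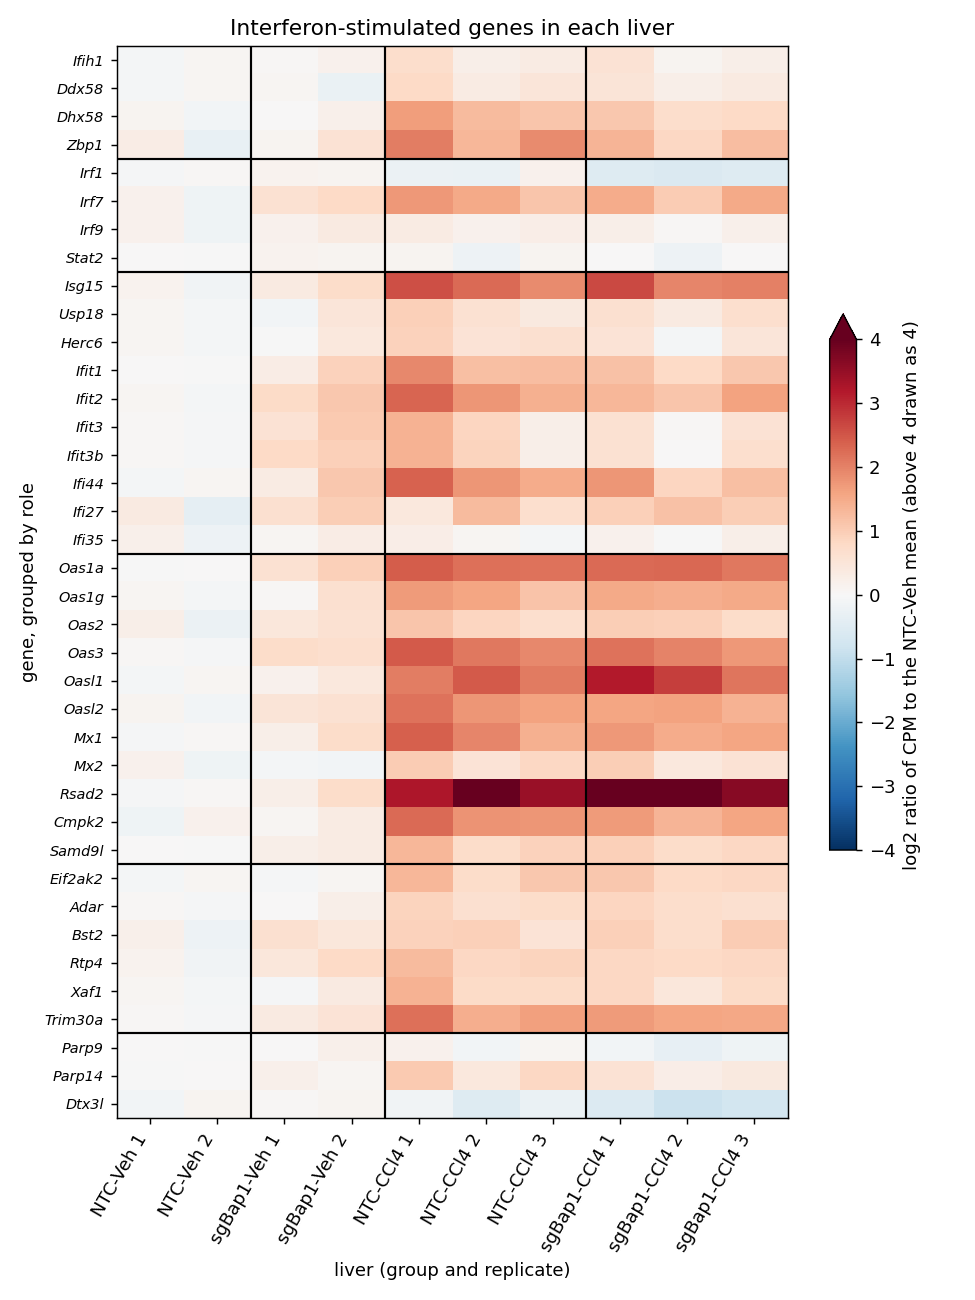
Each square gives the log2 ratio of a gene's CPM in 1 liver to its mean over the NTC-Veh livers, with the 38 genes grouped by role in the order sensors, transcription factors, Ifit, Ifi and Isg15 genes, OAS and Mx genes, RNA and membrane effectors, and PARP genes with Dtx3l. The OAS and Mx block is red in all 6 CCl4 livers, Rsad2 most of all, while Irf1, Parp9 and Dtx3l are pale or blue in the sgBap1-CCl4 livers.

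The members differed in how high they stood. Per kilobase of exon, Bst2 was highest in all 4 groups, at 124 CPM per kb in NTC-Veh livers, followed there by Ifi27 at 46.8 and Isg15 at 19.6 CPM per kb. Oas3 was lowest in all 4 groups, at 0.340 CPM per kb in NTC-Veh livers. Bst2 and Ifi27 varied between those livers by SDs of 25.7 and 16.3 CPM per kb, and Isg15 (SD 2.66) and Ifi35 at 18.2 (SD 3.48) were no further apart than their spread. Rsad2 changed place most plainly among those named here, from rank 29 at 2.11 CPM per kb in NTC-Veh livers to rank 6 at 26.8 in NTC-CCl4 livers and rank 4 at 57.3 in sgBap1-CCl4 livers.

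The genes also shared features of position and sequence that their selection did not use. All 6 Oas genes lie on chromosome 5, all 4 Ifit genes on chromosome 19, and Parp9, Parp14 and Dtx3l with Mx1, Mx2 and Rtp4 on chromosome 16. Promoter windows from 250 bases before to 50 bases after the gene start (RefSeq, GRCm38.p6) were at hand for 28 members. The core letters of the interferon-stimulated response element (GAAA, 2 bases of any kind, and GAAA again, on either strand) occurred in the windows of 14 of the 28 (50%), against 1079 of 27025 genes with a window (3.99%). The letters TTCNNNGAA, the core of the gamma-activated sequence, which read the same way on both strands, occurred in 7 of the 28 (25%) against 9.55% of all genes, and both occurred in 3 of the 28. In Bst2 a match to the TTCNNNGAA letters overlaps a match to the response element by a few bases. A match is a description of the letters and not a measured binding site.

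Stretches of 7 promoters are printed. Each is from RefSeq on GRCm38.p6, read 5′ to 3′ on the gene's own strand, and capitals mark matches to the core of the response element, on either strand, that lie wholly within the stretch. They are Isg15 (chr4:156200862-156200921, minus strand), Ifit1 (chr19:34640760-34640819, plus), Ifit3 (chr19:34583348-34583407, plus), Ifit3b (chr19:34607744-34607803, plus), Oas1a (chr5:120907526-120907570, minus), Oas1g (chr5:120887614-120887656, minus) and Rsad2 (chr12:26456538-26456597, minus).
Isg15: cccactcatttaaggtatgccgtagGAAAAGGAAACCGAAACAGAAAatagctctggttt
Ifit1: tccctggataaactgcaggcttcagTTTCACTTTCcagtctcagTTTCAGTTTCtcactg
Ifit3: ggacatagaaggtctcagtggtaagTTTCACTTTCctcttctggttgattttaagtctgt
Ifit3b: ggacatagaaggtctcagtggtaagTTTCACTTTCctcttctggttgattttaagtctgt
Oas1a: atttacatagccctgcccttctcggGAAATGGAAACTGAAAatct
Oas1g: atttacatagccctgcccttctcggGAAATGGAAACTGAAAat
Rsad2: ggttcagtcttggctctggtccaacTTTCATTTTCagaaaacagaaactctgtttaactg
Isg15 holds 3 overlapping matches that begin 78, 72 and 66 bases before its start. The printed stretches of Ifit3 and Ifit3b are identical, and that of Oas1g is that of Oas1a without its last 2 bases. The transcripts of these pairs also share sequence, so a read can fit either gene. Of all 50-base stretches of Ifit3, 51.2% occur in another gene, foremost Ifit3b, while 44.5% of those of Ifit3b occur in Ifit3, and the shares in any other gene were 57.6% for Oas1a and 45.7% for Oas1g. With Herc6 (12.5%) and Rtp4 (11.6%) these 6 genes are the members whose counts are uncertain in this way.

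The first comparison asked how CCl4 injury changed the genes in livers with intact Bap1. CCl4 is turned into a reactive radical by the cytochrome Cyp2e1 in the hepatocytes around the central vein, which die, and their debris draws in monocytes and neutrophils. Nucleic acids from dying cells can be read by sensors that also detect viruses, and interferon-stimulated genes are among the targets of those sensors. In NTC livers 32 of the 38 members rose and 0 fell by edgeR, where 27.4% of all genes tested rose and 26.6% fell. Only 1 member had an unadjusted p under 0.05 in the downward direction, and DESeq2 also called 32 higher and 0 lower. The median change was 1.02, a 2.03-fold rise, against 0.03 over all genes, and 20 members changed by more than 1. Without sgBap1-CCl4 replicate 2 the count was 31 higher, with Ifi27 lost, and the median was 1.03. Of the 6 members that were not called, Irf9, Stat2, Ifi35 and Parp9 had changes between 0.01 and 0.25, and Irf1 and Dtx3l had changes of -0.09 and -0.30.

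The second comparison asked the same question in livers edited at Bap1. BAP1 removes ubiquitin from histone H2A, a mark that Polycomb complexes place on silent genes, so its loss can alter which genes injury switches on or off. Only a part of the cells in these livers carries the edit, since Cre was driven in hepatocytes. In sgBap1 livers 18 members rose and 3 fell, where 29.0% of all genes tested rose and 28.0% fell. DESeq2 called 19 higher and 3 lower. The median change was 0.50 against 0.04 over all genes, and without sgBap1-CCl4 replicate 2 it was 0.59, with 20 members higher (Xaf1 and Bst2 added) and 2 lower (Parp9 lost). The members that fell were Irf1, Parp9 and Dtx3l, but scaling by library size alone called 33 members higher and 0 lower and gave Parp9 a change of 0.17.

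Each comparison with CCl4 depends on how libraries are scaled, because library size alone shifted the median of all genes to 0.50 in NTC livers and to 0.52 in sgBap1 livers. Relative to the median of all genes, the members' median was 1.00 in NTC livers under TMM and under library size alone, and 0.46 in sgBap1 livers under both. Library size alone called 37 members higher and 0 lower in NTC livers. It called 10561 of the 17015 genes tested there in either direction, against 9178 with TMM. The 18 members that rose in sgBap1 livers had all risen in NTC livers. Another 14 rose in NTC livers and were not called in sgBap1 livers, namely Ifih1, Usp18, Herc6, Ifit1, Ifit2, Ifit3, Ifit3b, Ifi44, Ifi27, Oas2, Bst2, Rtp4, Xaf1 and Parp14. Whether those responses differ between genotypes is the subject of the interaction described further on, in which no member was called by edgeR.

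**Figure D2:**
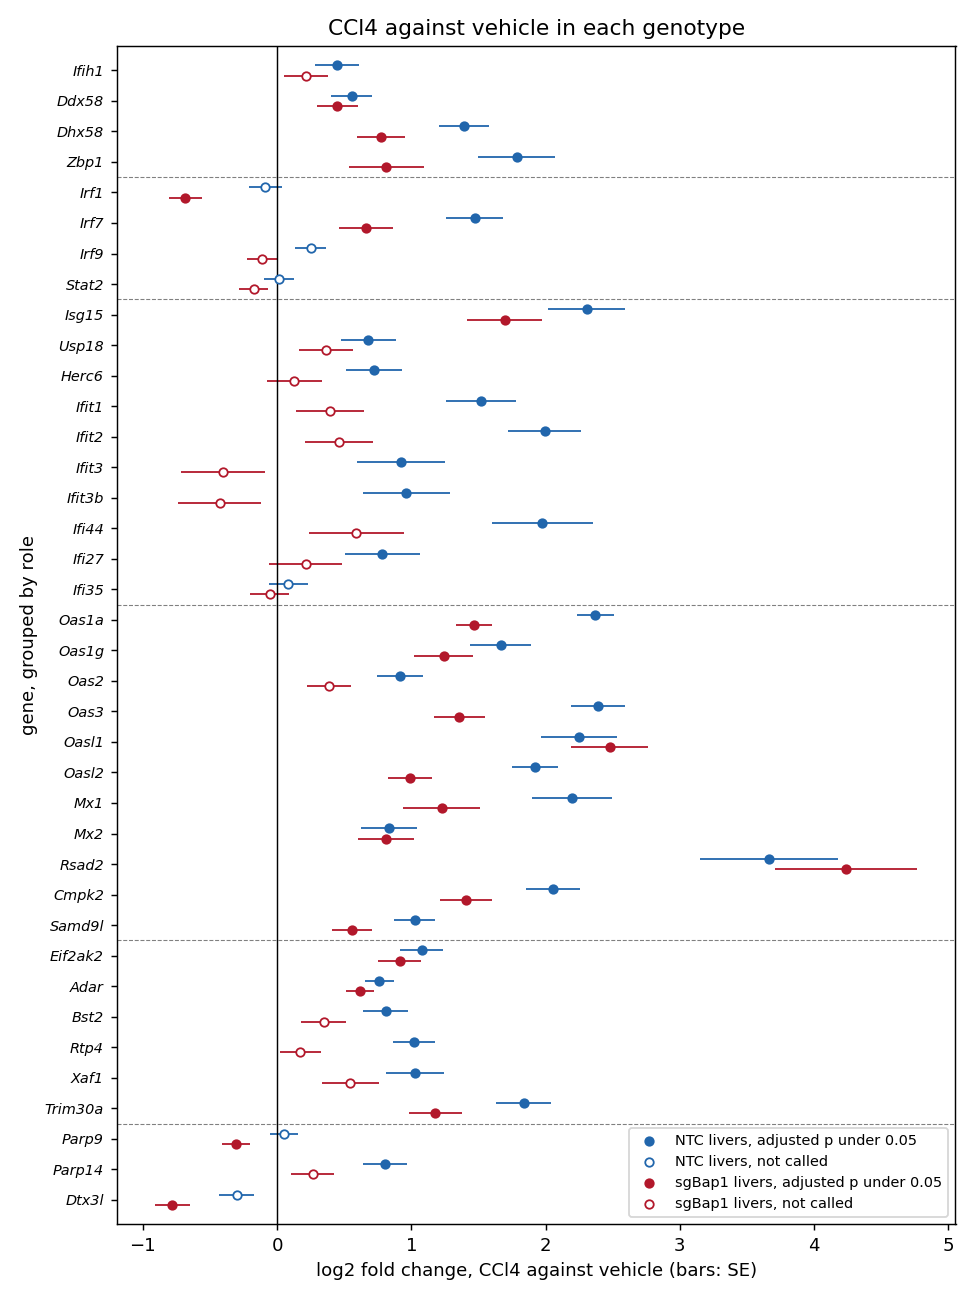
Log2 fold change of each member between CCl4 and vehicle (points, with bars of 1 SE) in NTC livers in blue and sgBap1 livers in red, with filled points for adjusted p under 0.05. Most blue points lie to the right of the red points of the same gene, Rsad2 and Oasl1 being exceptions, and the filled points left of 0 are Irf1, Parp9 and Dtx3l in sgBap1 livers, none of which was called lower under library size alone.

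The third comparison asked what editing Bap1 did to the genes without injury. Interferon-stimulated genes keep a low level in healthy tissue through weak, standing interferon signalling, and differences at this level can precede any challenge. Kupffer cells respond to interferon as well as hepatocytes, and which cells hold this level was not tested. In vehicle-treated livers 1 member, Oas1a, rose in sgBap1 against NTC by edgeR, where 0.276% of all genes tested rose. At an unadjusted p under 0.05, 12 members were higher (7.09% of all genes tested) and 0 lower, and DESeq2 called 4 higher, namely Ifit2, Oas1a, Oas3 and Rtp4 (2.69% of genes it tested). In 24 members both sgBap1-Veh livers lay above both NTC-Veh livers, which held for 21.7% of all genes tested. The change was above 0 in 36 of the 38, against 53.4% of all genes, with a median of 0.32 against 0.02. Immune cell markers had medians of 0.95 (Kupffer cells, 10 of 10 above 0), 1.09 (T and NK cells, 10 of 10), 0.56 (monocytes and recruited macrophages, 7 of 10), 0.52 (conventional dendritic cells, 6 of 6), 0.53 (neutrophils, 5 of 5) and 0.40 (plasmacytoid dendritic cells, 5 of 8) in this comparison, with 1 marker called by edgeR. At an unadjusted p under 0.05, 8 Kupffer cell, 5 T and NK cell and 5 monocyte and macrophage markers were higher. So were 2 plasmacytoid dendritic cell, 1 conventional dendritic cell and 0 neutrophil markers. DESeq2 called 8, 0, 5, 1, 0 and 0 higher in these lists, in the same order. The median of the members rested on the individual livers, since it was 0.19 without sgBap1-Veh replicate 2 and 0.46 without sgBap1-Veh replicate 1. Leaving out sgBap1-CCl4 replicate 2, which is in neither group, gave 0.32.

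The fourth comparison set the genotypes against each other after CCl4. It asks where the injured livers ended, whatever their level before the injury. In this comparison 0 members were called by edgeR, where 0.329% of all genes tested were called in either direction. At an unadjusted p under 0.05, 2 members were higher (Oasl1 and Rsad2, 6.32% of all genes) and 9 lower (7.64% of all genes), and DESeq2 called 2 lower, Irf1 and Dtx3l (1.98% of genes it tested). In 5 members, Dhx58, Irf1, Ifit1, Cmpk2 and Dtx3l, all sgBap1-CCl4 livers lay below all NTC-CCl4 livers, against 10.1% of all genes. The change was below 0 in 32 of the 38 (30 without sgBap1-CCl4 replicate 2), with a median of -0.19 against 0.00 over all genes. The median was -0.04 without NTC-CCl4 replicate 1, the highest liver of its group, and -0.15 without sgBap1-CCl4 replicate 2, while it was -0.29 without NTC-CCl4 replicate 2 and -0.27 without sgBap1-CCl4 replicate 1. Immune cell markers had medians of -0.18 (Kupffer cells, 9 of 10 below 0) and -0.12 (T and NK cells, 8 of 10). Others were -0.08 (conventional dendritic cells, 4 of 6), -0.08 (plasmacytoid dendritic cells, 5 of 8), 0.09 (monocytes and recruited macrophages, 4 of 10) and 0.10 (neutrophils, 1 of 5). By edgeR 0 were called in each list. Without sgBap1-CCl4 replicate 2 these were -0.30 (10 of 10) for Kupffer cells and -0.07 (8 of 10) for monocytes and recruited macrophages.

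The interaction tested whether the response to CCl4 itself differed between genotypes. A negative value means a smaller rise, or a larger fall, in sgBap1 livers than in NTC livers, and it can come from a higher level before injury as well as from a lower level after it. By edgeR 0 members were called, as were 0% of all genes tested, and the smallest adjusted p of a member was 0.0956, for Oas1a. At an unadjusted p under 0.05, 22 members were lower (6.78% of all genes tested) and 0 higher, and DESeq2 called 7 lower (2.19% of genes it tested), namely Ifit1, Ifit2, Ifit3, Oas1a, Oas3, Oasl2 and Rtp4. The value was below 0 in 36 of the 38, all but Oasl1 and Rsad2, with a median of -0.55 against -0.02 over all genes. The lists of immune cell markers had median interactions of -1.20 (Kupffer cells, 10 of 10 below 0), -1.20 (T and NK cells, 10 of 10), -0.53 (monocytes and recruited macrophages, 7 of 10), -0.55 (conventional dendritic cells, 5 of 6), -0.35 (neutrophils, 4 of 5) and -0.16 (plasmacytoid dendritic cells, 5 of 8), with 0 of these 49 markers called by edgeR, 20 lower and 1 higher at an unadjusted p under 0.05 and 9 lower by DESeq2. The median of the members was -0.48 without sgBap1-CCl4 replicate 2, without NTC-CCl4 replicate 1 it was -0.41, and without sgBap1-Veh replicate 1 it was -0.69. The comparisons share their livers with the interaction, so their values are set side by side here and not counted as separate results.

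**Figure D3:**
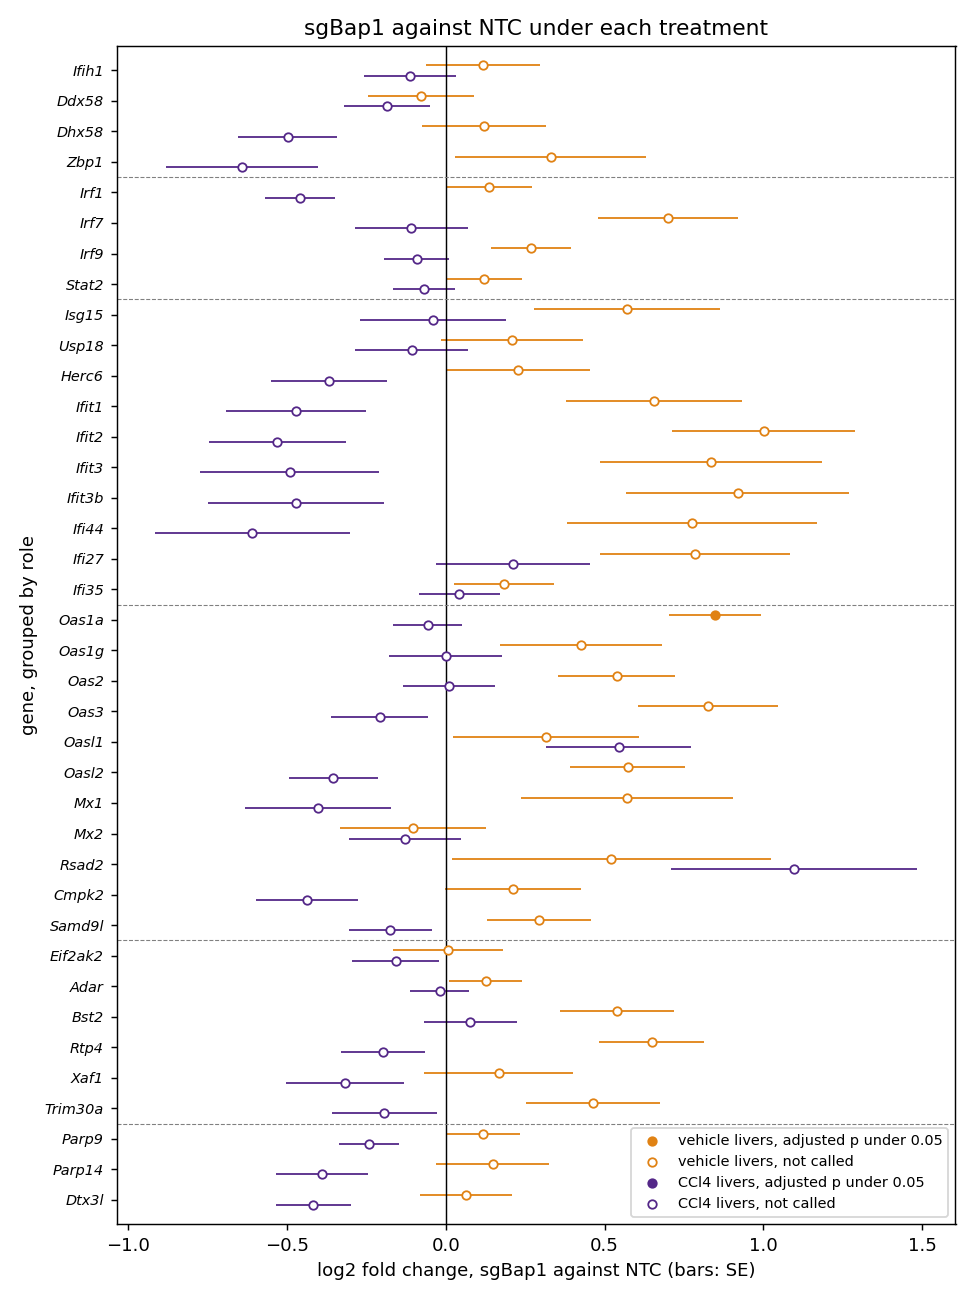
Log2 fold change of each member between sgBap1 and NTC livers (points, with bars of 1 SE) under vehicle in orange and under CCl4 in purple, with filled points for adjusted p under 0.05. Most orange points lie right of 0 and most purple points left of it, and the only filled point is Oas1a under vehicle.

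Among the members by role, the sensors come first. RIG-I (gene symbol Ddx58) and MDA5 (Ifih1) detect viral RNA in the cytoplasm, LGP2 (Dhx58) tunes both, and Zbp1 binds nucleic acid in the left-handed Z form and can start cell death. All 4 rose with CCl4 in NTC livers and 3 of the 4 rose in sgBap1 livers, with and without sgBap1-CCl4 replicate 2. Dhx58 was at 16.5 and 14.0 CPM in NTC-Veh livers, 15.5 and 17.7 in sgBap1-Veh, 49.5, 37.3 and 33.4 in NTC-CCl4 and 33.0, 25.0001 and 27.1 in sgBap1-CCl4 livers. Zbp1 was at 24.98 and 16.04 CPM in NTC-Veh livers, 21.7 and 30.0 in sgBap1-Veh, 84.8, 51.2 and 76.3 in NTC-CCl4 and 52.0, 36.3 and 47.7 in sgBap1-CCl4 livers. All CCl4 livers were above all vehicle livers for both genes, and for Dhx58 the sgBap1-CCl4 livers lay wholly below the NTC-CCl4 livers, while for Zbp1 they overlapped at replicate 1 of sgBap1. Dhx58 rose by 1.39 ± 0.18 in NTC livers (adjusted p 1.37e-04) and by 0.77 ± 0.18 in sgBap1 livers (adjusted p 0.00439), with an interaction of -0.62 (adjusted p 0.426). Zbp1 rose by 1.79 ± 0.29 and by 0.81 ± 0.28, and its difference between genotypes after CCl4, -0.64 ± 0.24, was the lowest among the members and was not called (adjusted p 0.284). Its call in sgBap1 livers was lost without sgBap1-Veh replicate 1 (0.60), sgBap1-CCl4 replicate 1 (0.70) or sgBap1-CCl4 replicate 3 (0.77).

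Ddx58 was at 41.9 and 46.6 CPM in NTC-Veh and 46.8 and 37.1 CPM in sgBap1-Veh livers, and at 77.6, 55.8 and 61.9 CPM in NTC-CCl4 and 63.1, 51.8 and 56.9 CPM in sgBap1-CCl4 livers. The vehicle groups overlapped, and every CCl4 liver was above every vehicle liver. It rose by 0.56 ± 0.15 in NTC livers and by 0.45 ± 0.15 in sgBap1 livers, and with Mx2 it was the member with a change below 0 between genotypes under vehicle (-0.08, range -0.26 to 0.08). Its call in NTC livers was lost without NTC-Veh replicate 1 (0.48), and its call in sgBap1 livers without sgBap1-Veh replicate 2 (0.29), sgBap1-CCl4 replicate 1 (0.38) or sgBap1-CCl4 replicate 3 (0.45). Ifih1 rose in NTC livers by 0.44, and had a change of 0.22 (range 0.07 to 0.31) in sgBap1 livers. The call in NTC livers was lost without NTC-Veh replicate 1 (0.37), NTC-Veh replicate 2 (0.53), sgBap1-Veh replicate 1 (0.45), sgBap1-Veh replicate 2 (0.45), NTC-CCl4 replicate 1 (0.29), NTC-CCl4 replicate 3 (0.50) or sgBap1-CCl4 replicate 3 (0.45). The interaction values of Ddx58 and Ifih1 were -0.11 (range -0.26 to 0.08) and -0.23 (range -0.38 to -0.08).

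The transcription factors moved apart from each other. Irf7 amplifies type I interferon production, Irf9 and Stat2 are the DNA-binding and activating parts of the complex formed under the type I receptor, and Irf1 is a factor that interferon gamma induces strongly. Irf7 was at 50.6 and 40.3 CPM in NTC-Veh livers, 68.8 and 78.8 in sgBap1-Veh, 150.1, 129 and 98.7 in NTC-CCl4 and 129, 92.0 and 130.1 in sgBap1-CCl4 livers. The sgBap1-Veh livers stood between the NTC-Veh livers and all CCl4 livers, and the CCl4 groups overlapped. Irf7 rose by 1.47 ± 0.21 in NTC livers (adjusted p 2.56e-04) and by 0.66 ± 0.20 in sgBap1 livers (adjusted p 0.0185). Under vehicle its difference between genotypes was 0.70 ± 0.22 (adjusted p 0.218), after CCl4 it was -0.11 (range -0.26 to 0.04), and the interaction was -0.81 ± 0.28 (adjusted p 0.344). The call in sgBap1 livers was lost without sgBap1-Veh replicate 1 (0.57), sgBap1-Veh replicate 2 (0.76), sgBap1-CCl4 replicate 1 (0.59) or sgBap1-CCl4 replicate 3 (0.57).

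Irf1 was at 38.8 and 41.6 CPM in NTC-Veh livers, 44.8 and 43.6 in sgBap1-Veh, 34.4, 33.6 and 45.5 in NTC-CCl4 and 27.7, 26.8 and 28.0 in sgBap1-CCl4 livers. The sgBap1-CCl4 livers were the lowest of all and did not overlap any other group. NTC-CCl4 replicate 3 stood above the other NTC-CCl4 livers and above every vehicle liver. With CCl4 its change was -0.09 ± 0.12 in NTC livers, not called (adjusted p 0.574), and it fell in sgBap1 livers by 0.68 on the log2 scale, SE 0.12 (adjusted p 8.20e-04), while library size alone gave 0.39, called higher (adjusted p 0.0345), and -0.21, not called. In NTC livers it was called lower without NTC-CCl4 replicate 3 (-0.24), within a range of -0.24 to -0.0074. After CCl4 the difference between genotypes was -0.46 ± 0.11, not called by edgeR (adjusted p 0.114) and called by DESeq2, with values from -0.54 to -0.31 when 1 liver was left out, and the interaction was -0.60 ± 0.17 (adjusted p 0.228).

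Stat2 was at 98.7 and 95.2 CPM in NTC-Veh livers, 106 and 104 in sgBap1-Veh, 105, 85.0 and 104 in NTC-CCl4 and 97.8, 84.8 and 97.6 in sgBap1-CCl4 livers. Irf9 was at 53.7 and 42.9 CPM in NTC-Veh livers, 54.2 and 62.3 in sgBap1-Veh, 60.8, 54.3 and 57.5 in NTC-CCl4 and 56.6, 49.6 and 55.8 in sgBap1-CCl4 livers. Both genes were higher in the sgBap1-Veh livers than in the NTC-Veh livers and overlapped between the CCl4 groups, and with TMM scaling and all livers neither was called in any comparison. With CCl4 Stat2 changed by 0.01 (range -0.04 to 0.11) in NTC livers and -0.17 (range -0.22 to -0.11) in sgBap1 livers, where library size alone gave 0.49 (adjusted p 0.00250) and 0.30 (adjusted p 0.0298), both called. Irf9 changed by 0.25 (range 0.10 to 0.42) and -0.11 (range -0.20 to -0.01), where library size alone gave 0.73 (adjusted p 1.10e-04) and 0.37 (adjusted p 0.00730), both called, and in NTC livers it was called higher without NTC-Veh replicate 1 (0.42).

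**Figure D4:**
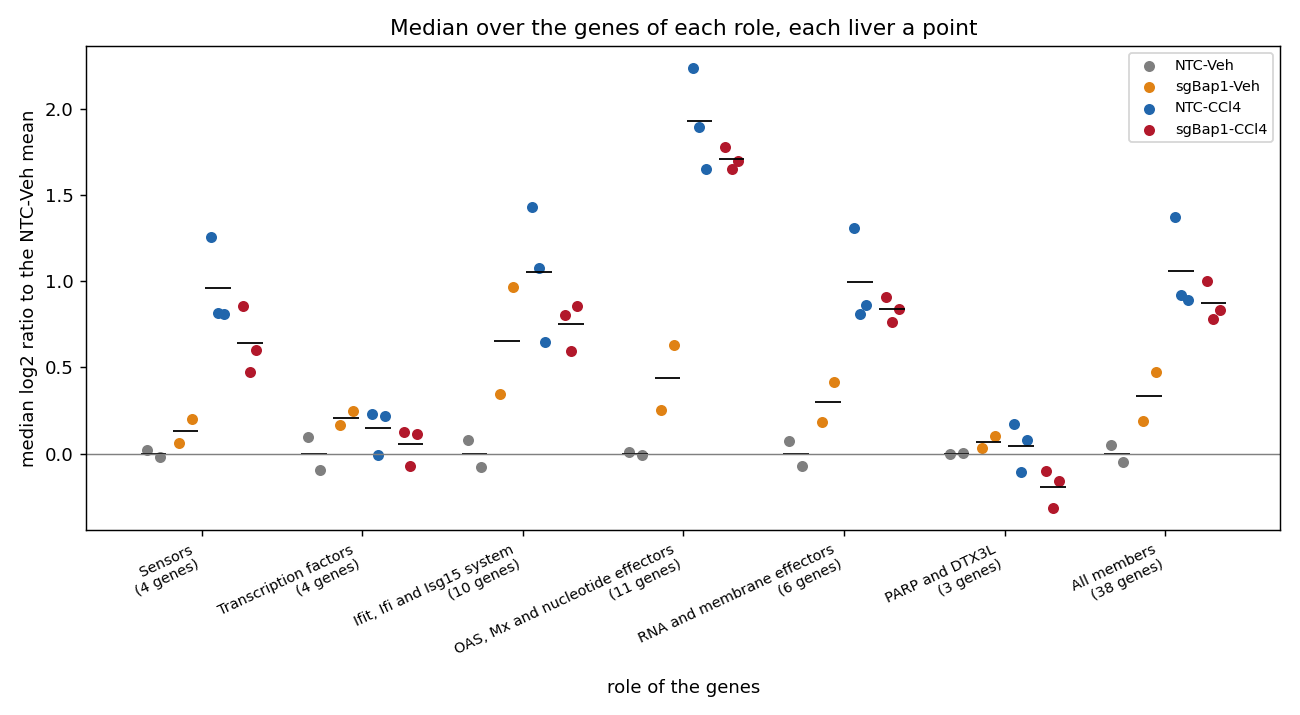
Median over the genes of each role of the log2 ratio to the NTC-Veh mean, with each liver a point, group means as bars and groups by colour. The OAS, Mx and nucleotide effectors lie highest with CCl4, between 1.65 and 2.24, and the transcription factors and the PARP genes with Dtx3l stay between -0.32 and 0.25 in all livers.

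The Ifit, Ifi and Isg15 genes differed between the sgBap1-Veh livers, with per-liver medians of 0.35 and 0.96. ISG15 is a ubiquitin-like protein that is attached to other proteins by ligases including HERC6 and removed by USP18, which also blocks the type I receptor, and IFIT proteins bind RNA with viral 5′ ends. Of these 10 genes, 9 rose with CCl4 in NTC livers (median change 0.94), and 1, Isg15, rose in sgBap1 livers (median 0.29, or 0.38 without sgBap1-CCl4 replicate 2, where 8 rose in NTC livers). Between genotypes their median was 0.72 under vehicle and -0.42 after CCl4, where it was -0.23 without sgBap1-CCl4 replicate 2, and the median interaction was -0.87, or -0.83 without that liver. None of the 10 was called by edgeR between genotypes under either treatment or in the interaction, 5 were higher under vehicle at an unadjusted p under 0.05, and DESeq2 called Ifit2 under vehicle. After CCl4, 1 was lower at an unadjusted p under 0.05 and DESeq2 called 0, and in the interaction 5 were lower at that level and DESeq2 called 3.

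Isg15 was at 16.2 and 13.4 CPM in NTC-Veh livers, 19.0 and 25.1 in sgBap1-Veh, 90.8, 72.4 and 56.3 in NTC-CCl4 and 94.9, 58.0 and 60.8 in sgBap1-CCl4 livers. Both sgBap1-Veh livers were above both NTC-Veh livers, all CCl4 livers were far above them, and the CCl4 groups overlapped. Isg15 rose by 2.31 ± 0.29 in NTC livers (adjusted p 1.53e-04) and by 1.69 ± 0.28 in sgBap1 livers (adjusted p 7.46e-04), and these calls were kept without any 1 liver. Between genotypes it differed by 0.57 ± 0.29 under vehicle (adjusted p 0.486) and by -0.04 ± 0.23 after CCl4 (adjusted p 0.962), with ranges of 0.36 to 0.76 and -0.30 to 0.15. Per kilobase it ranked second among the members in both CCl4 groups, behind Bst2 and with Ifi27 within its spread, and its promoter holds the 3 overlapping matches printed above.

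Ifit1 was at 16.1 and 15.8 CPM in NTC-Veh livers, 19.7 and 30.8 in sgBap1-Veh, 61.7, 37.2 and 38.7 in NTC-CCl4 and 36.7, 28.0 and 34.6 in sgBap1-CCl4 livers. The groups followed each other in the order NTC-Veh, sgBap1-Veh, sgBap1-CCl4 and NTC-CCl4, with overlap only where sgBap1-Veh replicate 2 stood above sgBap1-CCl4 replicate 2. It rose by 1.52 ± 0.26 in NTC livers (adjusted p 0.00103) and changed by 0.39 ± 0.25 in sgBap1 livers (adjusted p 0.210, range 0.11 to 0.75). The difference between genotypes was 0.66 ± 0.28 under vehicle (adjusted p 0.386) and -0.47 ± 0.22 after CCl4 (adjusted p 0.380), and the interaction was -1.13 ± 0.35 (adjusted p 0.289). With 1 liver left out, the difference ran from 0.30 to 0.94 under vehicle and from -0.60 to -0.20 after CCl4.

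Ifit2, whose product also binds RNA, was at 4.76 and 4.27 CPM in NTC-Veh livers, 8.07 and 10.1 in sgBap1-Veh, 24.4, 16.4 and 13.1 in NTC-CCl4 and 12.2, 10.4 and 14.8 in sgBap1-CCl4 livers. Its lowest sgBap1-Veh liver was well above both NTC-Veh livers, and the CCl4 groups overlapped. Ifit2 rose by 1.99 ± 0.27 in NTC livers (adjusted p 1.85e-04) and changed by 0.46 ± 0.25 in sgBap1 livers (adjusted p 0.146). It had the largest difference between genotypes under vehicle among the members, 1.00 ± 0.29 (adjusted p 0.179), and the lowest interaction, -1.53 ± 0.36 (adjusted p 0.143).

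Ifit3, a partner of Ifit1, was at 26.7 and 24.8 CPM in NTC-Veh livers, 38.7 and 53.2 in sgBap1-Veh, 68.7, 47.2 and 30.6 in NTC-CCl4 and 39.2, 26.5 and 38.6 in sgBap1-CCl4 livers. Ifit3b, its near copy, was at 6.74 and 6.27 CPM in NTC-Veh livers, 11.6 and 13.0 in sgBap1-Veh, 17.8, 12.4 and 7.80 in NTC-CCl4 and 10.2, 6.59 and 10.7 in sgBap1-CCl4 livers. For both genes the sgBap1-Veh livers were above both NTC-Veh livers and within the wide spread of the NTC-CCl4 livers, of which replicate 1 was the highest and replicate 3 the lowest. The counts of the pair are uncertain because of the sequence they share, so their like pattern is not that of independent genes. Ifit3 rose by 0.92 ± 0.33 in NTC livers (adjusted p 0.0401), and this call was lost without NTC-Veh replicate 1 (0.98), NTC-Veh replicate 2 (0.87), sgBap1-Veh replicate 1 (0.93), sgBap1-Veh replicate 2 (0.93), NTC-CCl4 replicate 1 (0.60), NTC-CCl4 replicate 2 (0.95), sgBap1-CCl4 replicate 1 (0.93) or sgBap1-CCl4 replicate 3 (0.93). Ifit3b rose by 0.96 ± 0.32 (adjusted p 0.0310), and this call was lost without NTC-Veh replicate 1 (1.02), NTC-Veh replicate 2 (0.91), NTC-CCl4 replicate 1 (0.64) or NTC-CCl4 replicate 2 (0.98). In sgBap1 livers the changes with CCl4 were -0.40 (range -0.61 to -0.16) and -0.43 (range -0.56 to -0.23), neither called, and library size alone turned them to 0.07 and 0.04, not called either. Between genotypes they were 0.84 and 0.92 under vehicle and -0.49 and -0.47 after CCl4, none of them called. The interaction values were -1.33 (adjusted p 0.344) and -1.39 (adjusted p 0.298). With 1 liver left out, the difference after CCl4 ran from -0.74 to -0.17 in Ifit3 and from -0.72 to -0.15 in Ifit3b.

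Ifi44, an interferon-induced gene of less defined function, was at 8.90 and 9.81 CPM in NTC-Veh livers, 11.7 and 20.4 in sgBap1-Veh, 49.998, 33.1 and 27.3 in NTC-CCl4 and 32.7, 17.5 and 22.1 in sgBap1-CCl4 livers. Its sgBap1-Veh replicate 2 stood above sgBap1-CCl4 replicate 2, and all NTC-CCl4 livers were above all vehicle livers. It rose by 1.98 ± 0.38 in NTC livers (adjusted p 0.00227) and changed by 0.59 ± 0.35 in sgBap1 livers (adjusted p 0.187, range 0.24 to 1.04), and its interaction was -1.38 ± 0.50 (adjusted p 0.380). Usp18 was at 23.0 and 20.4 CPM in NTC-Veh livers, 19.99 and 30.3 in sgBap1-Veh, 42.7, 32.9 and 28.7 in NTC-CCl4 and 33.8, 28.2 and 34.9 in sgBap1-CCl4 livers. Its sgBap1-Veh replicate 1 was the lowest of all livers and replicate 2 lay within the CCl4 range. Usp18 rose by 0.68 in NTC livers (adjusted p 0.0179), a call lost without NTC-Veh replicate 1 (0.77), NTC-Veh replicate 2 (0.60) or NTC-CCl4 replicate 1 (0.51). It changed by 0.36 (range 0.10 to 0.69) in sgBap1 livers, where it was called without sgBap1-Veh replicate 2 (0.69). Its interaction was -0.32 (adjusted p 0.776, range -0.58 to 0.01, the highest without sgBap1-Veh replicate 2).

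Ifi27, which encodes a small membrane protein, was at 85.6 and 51.8 CPM in NTC-Veh livers, 105 and 132 in sgBap1-Veh, 88.5, 161 and 105 in NTC-CCl4 and 129.8, 149.7 and 132 in sgBap1-CCl4 livers. Both NTC groups were widely spread and NTC-CCl4 replicate 1 stood hardly above NTC-Veh replicate 1, while both sgBap1-Veh livers were above both NTC-Veh livers. It rose by 0.79 ± 0.28 in NTC livers (adjusted p 0.0383), and this call was lost without NTC-Veh replicate 2 (0.47), sgBap1-Veh replicate 2 (0.79), NTC-CCl4 replicate 2 (0.50), sgBap1-CCl4 replicate 1 (0.79), sgBap1-CCl4 replicate 2 (0.79) or sgBap1-CCl4 replicate 3 (0.79). In sgBap1 livers it changed by 0.21 (range 0.06 to 0.39), and the interaction was -0.57 (adjusted p 0.679), or -0.98 to -0.26 with 1 liver left out. Herc6, whose count is uncertain, rose in NTC livers by 0.72, lost without NTC-Veh replicate 1 (0.80) or NTC-Veh replicate 2 (0.65), and changed by 0.13 (range -0.07 to 0.36) in sgBap1 livers. Ifi35, which lies across from Gm11626 on the opposite strand over 16.8% of its exons, changed by 0.09 (range -0.10 to 0.30) and -0.06 (range -0.16 to 0.06), neither called, where library size alone gave 0.57 and 0.42, both called (adjusted p 0.00223 and 0.0110).

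**Figure D5:**
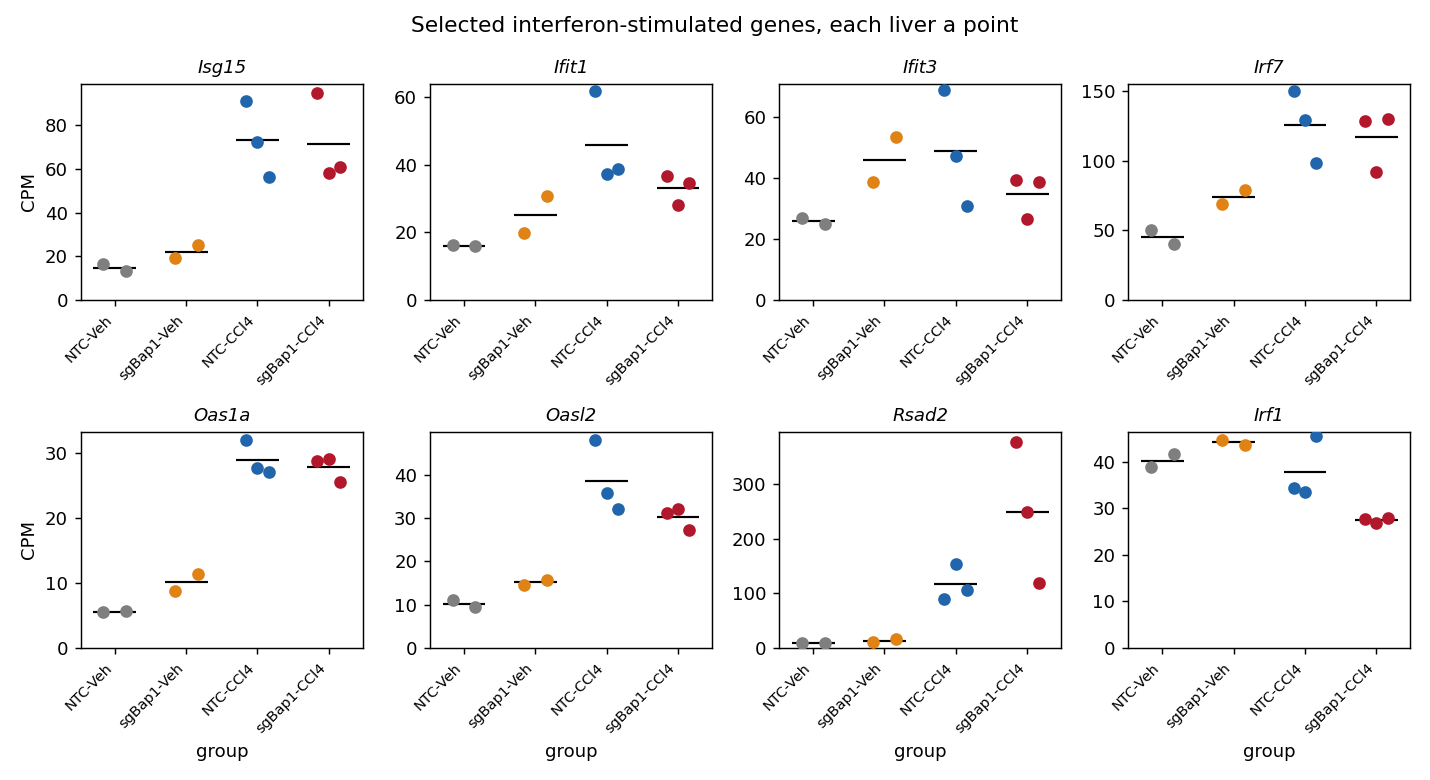
CPM of Isg15, Ifit1, Ifit3, Irf7, Oas1a, Oasl2, Rsad2 and Irf1 in each of the 10 livers (points) with the group mean (bars), on linear axes from 0. The sgBap1-Veh livers lie above the NTC-Veh livers in each of these 8 genes, which were picked for display. This holds for 24 of the 38 members and for 21.7% of all genes tested. For Irf1 the sgBap1-CCl4 livers lie below all the others.

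The OAS, Mx and nucleotide effectors carried the largest rise with CCl4. OAS enzymes make short adenylate chains that switch on an RNA-degrading enzyme, Mx proteins are GTPases that trap viral particles, Rsad2 (viperin) makes a chain-terminating nucleotide with the help of Cmpk2, and Samd9l restrains translation. Mx2 is annotated as a polymorphic pseudogene, and whether these livers make a working Mx protein was not tested. All 11 rose in NTC livers (median change 2.06), and 10 of the 11 rose in sgBap1 livers (median 1.24, or 1.29 without sgBap1-CCl4 replicate 2). Between genotypes the median was 0.52 under vehicle and -0.13 after CCl4, and the median interaction was -0.53, the value after CCl4 being -0.09 and the interaction -0.56 without sgBap1-CCl4 replicate 2. By edgeR 1 of the 11, Oas1a, was called under vehicle, and 0 after CCl4 or in the interaction, where 2 were higher and 2 lower after CCl4 and 7 were lower in the interaction at an unadjusted p under 0.05. DESeq2 called 2 higher under vehicle, 0 after CCl4 and 3 lower in the interaction.

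Oas1a was at 5.49 and 5.67 CPM in NTC-Veh livers, 8.80 and 11.4 in sgBap1-Veh, 31.9, 27.7 and 27.1 in NTC-CCl4 and 28.8, 29.1 and 25.5 in sgBap1-CCl4 livers. The sgBap1-Veh livers lay clear of the NTC-Veh livers, and the CCl4 groups overlapped within a narrow range. Oas1a rose by 2.37 ± 0.14 in NTC livers (adjusted p 1.41e-06), the smallest p of any member, and by 1.47 ± 0.13 in sgBap1 livers (adjusted p 1.00e-05). Under vehicle it was higher in sgBap1 livers by 0.85 ± 0.14 (adjusted p 0.0438), in 2 of 2 livers. That call was lost in 12 of 18 alternatives, with changes between 0.65 and 1.02 and an adjusted p between 1.71e-04 and 0.205 over the 18. Among these 12 were the fits without NTC-Veh replicate 1 (0.82), NTC-Veh replicate 2 (0.87), sgBap1-Veh replicate 1 (1.02), sgBap1-Veh replicate 2 (0.65), NTC-CCl4 replicate 1 (0.85), NTC-CCl4 replicate 2 (0.85), NTC-CCl4 replicate 3 (0.85), sgBap1-CCl4 replicate 1 (0.85) or sgBap1-CCl4 replicate 3 (0.85). The difference after CCl4 was -0.06 ± 0.11 (range -0.10 to 0.02), and the interaction was -0.90 ± 0.18 (adjusted p 0.0956). The count is uncertain because of the stretches Oas1a shares with Oas1g, which rose by 1.67 in NTC livers and 1.24 in sgBap1 livers and whose difference under vehicle was 0.43 (range 0.07 to 0.73).

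Oas3 was at 2.48 and 2.33 CPM in NTC-Veh livers, 4.36 and 4.15 in sgBap1-Veh, 15.2, 12.0 and 10.6 in NTC-CCl4 and 12.6, 10.9 and 9.24 in sgBap1-CCl4 livers. Oasl2, a related synthetase with a ubiquitin-like tail, was at 10.97 and 9.42 CPM in NTC-Veh livers, 14.6 and 15.8 in sgBap1-Veh, 48.0, 35.7 and 32.0 in NTC-CCl4 and 31.2, 32.0 and 27.3 in sgBap1-CCl4 livers. In both genes the vehicle groups did not overlap, all CCl4 livers were above all vehicle livers, and the CCl4 groups overlapped. Oas3 rose by 2.39 ± 0.20 in NTC livers and 1.36 ± 0.19 in sgBap1 livers, with an interaction of -1.03 ± 0.27 (adjusted p 0.173). Oasl2 rose by 1.92 ± 0.17 and 0.99 ± 0.17, with an interaction of -0.93 ± 0.23 (adjusted p 0.158). Under vehicle the genotypes differed by 0.83 in Oas3 (adjusted p 0.139) and 0.57 in Oasl2 (adjusted p 0.215). Oas2 rose by 0.92 in NTC livers and changed by 0.39 in sgBap1 livers (adjusted p 0.0682), where it was called without NTC-Veh replicate 1 (0.39) or NTC-Veh replicate 2 (0.39).

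Rsad2 was at 8.76 and 9.56 CPM in NTC-Veh livers, 10.9 and 15.5 in sgBap1-Veh, 89.8, 153 and 106 in NTC-CCl4 and 377, 249 and 119 in sgBap1-CCl4 livers. It was by far higher in every CCl4 liver than in any vehicle liver, and the sgBap1-CCl4 livers ran from within the NTC-CCl4 range to above it. It rose by 3.67 ± 0.52 in NTC livers, or 12.7-fold (adjusted p 4.90e-04), and by 4.24 ± 0.53 in sgBap1 livers, or 18.9-fold (adjusted p 2.36e-04). These were the largest changes of any member. After CCl4 the genotypes differed by 1.10 ± 0.39 (adjusted p 0.269), upward where most members were below 0, with values from 0.66 to 1.42 when 1 liver was left out, the lowest without sgBap1-CCl4 replicate 1 and the highest without replicate 3. Cmpk2, the neighbour of Rsad2 on chromosome 12, was at 4.93 and 6.37 CPM in NTC-Veh livers, 5.97 and 7.15 in sgBap1-Veh, 29.1, 20.9 and 20.4 in NTC-CCl4 and 19.3, 15.1 and 17.7 in sgBap1-CCl4 livers. Its sgBap1-CCl4 livers lay wholly below its NTC-CCl4 livers. It rose by 2.06 ± 0.20 in NTC livers and 1.41 ± 0.20 in sgBap1 livers, and after CCl4 the genotypes differed by -0.44 ± 0.16 (adjusted p 0.266), or by -0.53 to -0.25 with 1 liver left out.

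Oasl1, which limits the translation of Irf7, was at 13.0 and 14.3 CPM in NTC-Veh livers, 15.4 and 18.6 in sgBap1-Veh, 58.4, 77.6 and 58.7 in NTC-CCl4 and 126, 95.7 and 62.3 in sgBap1-CCl4 livers. Like Rsad2, it was above the NTC-CCl4 livers in sgBap1-CCl4 replicates 1 and 2, with replicate 3 inside the NTC-CCl4 range. It rose by 2.25 ± 0.28 in NTC livers and 2.48 ± 0.29 in sgBap1 livers, and after CCl4 the genotypes differed by 0.54 ± 0.23 (adjusted p 0.335), with values from 0.28 to 0.76 when 1 liver was left out, the lowest without sgBap1-CCl4 replicate 1 and the highest without replicate 3. Mx1 was at 2.20 and 2.37 CPM in NTC-Veh livers, 2.77 and 4.12 in sgBap1-Veh, 14.2, 10.4 and 6.96 in NTC-CCl4 and 8.84, 7.26 and 7.81 in sgBap1-CCl4 livers. All its CCl4 livers were above all its vehicle livers, NTC-CCl4 replicate 1 the highest and NTC-CCl4 replicate 3 the lowest of them. It rose by 2.20 ± 0.30 in NTC livers (adjusted p 1.66e-04) and 1.23 ± 0.29 in sgBap1 livers (adjusted p 0.00451), where the call was lost without sgBap1-Veh replicate 1 (0.96). Mx2 rose by 0.83 and 0.81, calls lost without NTC-Veh replicate 2 (0.67) and without sgBap1-Veh replicate 2 (0.79), and Samd9l rose by 1.03 and 0.56, the call in sgBap1 livers being lost without sgBap1-Veh replicate 1 (0.52).

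The RNA and membrane effectors all rose with CCl4 in NTC livers, 6 of 6 with a median change of 1.03, and 3 of 6 rose in sgBap1 livers with a median of 0.58, or 5 of 6 with 0.64 without sgBap1-CCl4 replicate 2. Eif2ak2 (PKR) halts translation on binding long paired RNA, Adar edits adenosine in such RNA and so hides the cell's own RNA from MDA5, and Bst2 (tetherin) holds budding virus on the cell surface. Eif2ak2 was at 20.3 and 22.7 CPM in NTC-Veh livers, 20.8 and 22.5 in sgBap1-Veh, 54.3, 36.3 and 45.8 in NTC-CCl4 and 45.7, 37.9 and 38.7 in sgBap1-CCl4 livers. Adar was at 37.6 and 35.2 CPM in NTC-Veh livers, 36.4 and 43.0 in sgBap1-Veh, 67.2, 57.6 and 60.4 in NTC-CCl4 and 65.7, 60.1 and 56.9 in sgBap1-CCl4 livers. In both genes each treatment's genotypes overlapped and all CCl4 livers were above all vehicle livers. Eif2ak2 rose by 1.08 ± 0.16 in NTC livers and 0.91 ± 0.16 in sgBap1 livers, with an interaction of -0.16 ± 0.22 (range -0.30 to -0.02). Adar rose by 0.76 ± 0.11 and 0.62 ± 0.11, with an interaction of -0.14 ± 0.15 (range -0.26 to -0.02), and shares 16.8% of its exon length with Chrnb2 on the opposite strand. The calls of Eif2ak2 and Adar were kept without any 1 liver.

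Bst2 was at 128 and 95.4 CPM in NTC-Veh livers, 173 and 152 in sgBap1-Veh, 212, 213 and 163 in NTC-CCl4 and 215, 180.4 and 225 in sgBap1-CCl4 livers. Both sgBap1-Veh livers were above both NTC-Veh livers, and sgBap1-Veh replicate 1 stood above NTC-CCl4 replicate 3. It rose by 0.81 ± 0.17 in NTC livers (adjusted p 0.00224) and changed by 0.35 ± 0.16 in sgBap1 livers (adjusted p 0.0965), where it was called without sgBap1-CCl4 replicate 2 (0.44). The interaction was -0.46 (adjusted p 0.545, range -0.69 to -0.26). Trim30a, which dampens inflammatory signalling, was at 13.6 and 12.9 CPM in NTC-Veh livers, 17.1 and 19.5 in sgBap1-Veh, 62.5, 37.1 and 42.3 in NTC-CCl4 and 44.6, 40.2 and 39.3 in sgBap1-CCl4 livers. Its vehicle groups did not overlap and its CCl4 groups did. It rose by 1.84 ± 0.20 in NTC livers and 1.18 ± 0.20 in sgBap1 livers. Rtp4, a chaperone of receptors whose count is uncertain, was at 19.0 and 15.8 CPM in NTC-Veh livers, 24.0 and 30.6 in sgBap1-Veh, 42.3, 30.9 and 32.8 in NTC-CCl4 and 31.1, 30.3 and 30.9 in sgBap1-CCl4 livers. Its sgBap1-Veh replicate 2 lay within the range of its sgBap1-CCl4 livers. It rose by 1.02 in NTC livers and changed by 0.17 (range 0.01 to 0.36) in sgBap1 livers, with an interaction of -0.85 ± 0.21 (adjusted p 0.163). Xaf1, which promotes cell death, rose by 1.03 in NTC livers and changed by 0.55 in sgBap1 livers (adjusted p 0.0516, range 0.35 to 0.77), where it was called without sgBap1-Veh replicate 2 (0.77), NTC-CCl4 replicate 1 (0.55), NTC-CCl4 replicate 2 (0.55) or sgBap1-CCl4 replicate 2 (0.65).

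The PARP genes and Dtx3l, like the transcription factors, had no common rise, with 1 of 3 higher in NTC livers and 2 lower in sgBap1 livers, where 0 were higher by edgeR, at an unadjusted p under 0.05 or by DESeq2. PARP9 and DTX3L form a complex that joins ADP-ribosylation with ubiquitination, and PARP14 attaches single ADP-ribose units to proteins. Dtx3l was at 77.8 and 92.3 CPM in NTC-Veh livers, 86.7 and 91.0 in sgBap1-Veh, 77.3, 58.9 and 71.1 in NTC-CCl4 and 57.4, 46.7 and 51.1 in sgBap1-CCl4 livers. Parp9, which faces Dtx3l on chromosome 16 and overlaps it on the opposite strand (9.4% of the exon length of Parp9 and 8.0% of that of Dtx3l), was at 72.6 and 71.9 CPM in NTC-Veh livers, 73.4 and 83.3 in sgBap1-Veh, 81.2, 66.9 and 76.2 in NTC-CCl4 and 67.2, 58.0 and 64.6 in sgBap1-CCl4 livers. For Dtx3l all sgBap1-CCl4 livers were below every other liver, and for Parp9 they overlapped the NTC-CCl4 livers at replicate 1. Dtx3l changed by -0.30 ± 0.13 in NTC livers (adjusted p 0.0765), or 0.17 without a call with library size alone, and fell in sgBap1 livers by 0.78 on the log2 scale, SE 0.13 (adjusted p 5.44e-04), where library size alone gave -0.30 and no call. In NTC livers it was called lower without NTC-CCl4 replicate 1 (-0.39), within a range of -0.42 to -0.17. Parp9 fell in sgBap1 livers by 0.31 on the log2 scale (adjusted p 0.0281), where library size alone gave 0.17 without a call and the call with TMM was lost without sgBap1-Veh replicate 2 (-0.21) or sgBap1-CCl4 replicate 2 (-0.25). Parp14 rose in NTC livers by 0.80 and changed by 0.26 in sgBap1 livers. After CCl4 the genotypes differed by -0.42 in Dtx3l, -0.24 in Parp9 and -0.39 (range -0.55 to -0.24) in Parp14, none of them called by edgeR, and the interaction values were -0.48, -0.36 and -0.54.

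Upstream of the members stand the interferons themselves. Of 21 ligand genes, 17 had 0 counts in all 10 livers and 0 passed the filter for testing. Ifnb1, the type I interferon that many cells make first, had 3 counts in all, in 2 livers. Ifng, made by T and NK cells, had 29 counts in all, at most 6 in a liver, over 9 livers. Ifnz (8.64 counts in all) and Ifng were the ligands that went above 3 counts in any liver, with uncertain counts in both (75.1% and 19.9% of their 50-base stretches occur in another gene), so differences in the ligands were not detectable at this depth.

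The receptors and kinases carry the signal to the nucleus. Of 9 such genes 5 rose and 1, Ifnar2, fell with CCl4 in NTC livers, and 6 rose and 1 fell in sgBap1 livers, or 5 and 1 without sgBap1-CCl4 replicate 2. Ifnar1 was at 42.0 and 35.9 CPM in NTC-Veh livers, 37.8 and 36.4 in sgBap1-Veh, 43.5, 40.3 and 44.3 in NTC-CCl4 and 42.4, 45.7 and 40.0 in sgBap1-CCl4 livers. Ifnar2 was at 54.9 and 60.4 CPM in NTC-Veh livers, 58.4 and 58.9 in sgBap1-Veh, 43.5, 40.8 and 44.0 in NTC-CCl4 and 41.6, 41.6 and 40.8 in sgBap1-CCl4 livers. The groups overlapped for Ifnar1, while for Ifnar2 all CCl4 livers were below all vehicle livers. Ifnar1 changed by 0.13 (range 0.03 to 0.25) in NTC livers and 0.20 in sgBap1 livers, neither called. Ifnar2 changed by -0.43 (adjusted p 7.71e-04) and -0.51 (adjusted p 2.54e-04), but library size alone gave 0.04 and -0.02, neither called. The genes that rose were Ifngr1 (1.38 in NTC and 1.35 in sgBap1 livers), Il10rb (1.31 and 1.15, an uncertain count with 13.9% of its stretches in another gene), Jak2 (0.74 and 0.64), Jak1 (0.41 and 0.40) and Ifnlr1 (1.41 and 1.42), with Ifngr2 (0.69) in sgBap1 livers and 0.32 without a call in NTC livers. The call of Ifnlr1 was lost in NTC livers without NTC-Veh replicate 1 (0.89) or NTC-CCl4 replicate 1 (1.25) and in sgBap1 livers without sgBap1-Veh replicate 1 (2.05), sgBap1-Veh replicate 2 (1.08), sgBap1-CCl4 replicate 1 (1.37) or sgBap1-CCl4 replicate 2 (1.24), that of Jak1 without NTC-Veh replicate 1 (0.29) and without sgBap1-Veh replicate 2 (0.35), and that of Jak2 in sgBap1 livers without sgBap1-Veh replicate 2 (0.46). Ifngr2 was called in NTC livers without NTC-Veh replicate 1 (0.56). Between genotypes 0 of the 9 were called by edgeR under vehicle, after CCl4 or in the interaction, and the counts at an unadjusted p under 0.05 and by DESeq2 were 0 each time as well.

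The genes that lead to interferon production rose in part. Of 14 genes of that pathway, 10 rose and 2 fell in NTC livers (median change 0.95), and 8 rose and 2 fell in sgBap1 livers (median 0.72). Without sgBap1-CCl4 replicate 2 it was 9 and 2 in NTC livers and 8 and 2 in sgBap1 livers (median 0.68). The DNA sensor Cgas was at 1.03 and 0.443 CPM in NTC-Veh livers, 0.888 and 1.197 in sgBap1-Veh, 3.88, 3.31 and 4.32 in NTC-CCl4 and 3.37, 3.35 and 2.74 in sgBap1-CCl4 livers. Its adaptor Sting1 was at 2.72 and 2.33 CPM in NTC-Veh livers, 4.44 and 3.29 in sgBap1-Veh, 10.95, 11.3 and 12.6 in NTC-CCl4 and 11.4, 14.1 and 11.1 in sgBap1-CCl4 livers. All CCl4 livers were above all vehicle livers for both genes. Cgas rose by 2.36 in NTC livers and 1.62 in sgBap1 livers and Sting1 by 2.20 and 1.65, beside the receptors Tlr9 (3.79 and 1.68), Tlr7 (2.23 and 1.52) and Tlr4 (2.08 and 1.27). The genes that fell were Mavs, the adaptor of RIG-I and MDA5 (-1.01 and -1.13), and the factor Irf3 (-0.75 and -0.77), which were below 0 under every scaling tried. The factor Irf8 was at 6.83 and 6.45 CPM in NTC-Veh and 14.4 and 11.1 CPM in sgBap1-Veh livers, without overlap, and was called under vehicle (0.95, adjusted p 0.0418), a call lost without NTC-Veh replicate 1 (0.98), NTC-Veh replicate 2 (0.91), sgBap1-Veh replicate 1 (0.74), sgBap1-Veh replicate 2 (1.12), NTC-CCl4 replicate 1 (0.95), NTC-CCl4 replicate 2 (0.95), sgBap1-CCl4 replicate 1 (0.95) or sgBap1-CCl4 replicate 3 (0.95). Ticam1, the adaptor of TLR3, was at 14.3, 14.7 and 16.3 CPM in NTC-CCl4 and 23.6, 21.0 and 21.9 CPM in sgBap1-CCl4 livers, again without overlap, and was called after CCl4 (0.56, adjusted p 0.0320). The latter call was lost without NTC-Veh replicate 1 (0.55), NTC-Veh replicate 2 (0.55), NTC-CCl4 replicate 1 (0.52), NTC-CCl4 replicate 2 (0.53), NTC-CCl4 replicate 3 (0.61), sgBap1-CCl4 replicate 1 (0.51), sgBap1-CCl4 replicate 2 (0.59) or sgBap1-CCl4 replicate 3 (0.55). Under vehicle 1 of the 14 was called by edgeR, 7 were higher at an unadjusted p under 0.05 and 4 by DESeq2, and 12 were above 0. After CCl4 1 was called by edgeR, 1 at an unadjusted p under 0.05 and 1 by DESeq2. In the interaction 0 of the 14 were called by edgeR, 5 at an unadjusted p under 0.05 and 2 by DESeq2.

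Of 10 genes that restrain the response, 7 rose in NTC livers (median change 0.83), and 7 rose and 1, Nlrc5, fell in sgBap1 livers (median 0.47). With sgBap1-CCl4 replicate 2 left out, 6 rose and 0 fell there (median 0.46). Nlrc5 changed by -0.50 there, or -0.03 without a call under library size alone, and its call was lost without sgBap1-Veh replicate 1 (-0.34), sgBap1-CCl4 replicate 1 (-0.52) or sgBap1-CCl4 replicate 2 (-0.45). Socs1, which inhibits JAK kinases, was at 0.327 and 0.166 CPM in NTC-Veh livers, 0.404 and 0.486 in sgBap1-Veh, 0.895, 0.826 and 1.07 in NTC-CCl4 and 0.834, 1.16 and 0.722 in sgBap1-CCl4 livers. All CCl4 livers were above all vehicle livers. It rose by 1.89 ± 0.39 in NTC livers (adjusted p 0.00229) and 1.05 ± 0.35 in sgBap1 livers (adjusted p 0.0274), where the call was lost without sgBap1-Veh replicate 1 (0.91), sgBap1-Veh replicate 2 (1.17) or sgBap1-CCl4 replicate 2 (0.83). Samhd1, which removes the building blocks of DNA, rose by 1.05 and 0.36, with an interaction of -0.70 ± 0.12 (adjusted p 0.0694). The phosphatases Ptpn11 (0.57 and 0.82), Ptpn1 (0.95 and 0.90) and Ptpn6 (0.79 and 0.51), the JAK inhibitor Socs3 (1.71 and 2.29) and the nuclease Trex1 (0.87 and 0.43) rose in each genotype. The count of Trex1 is uncertain, since 95.8% of its stretches occur in another gene, foremost Atrip. In sgBap1 livers the call of Trex1 was lost without sgBap1-Veh replicate 1 (0.30) and that of Samhd1 without sgBap1-Veh replicate 2 (0.28). Between genotypes 0 of the 10 were called by edgeR under either treatment or in the interaction. At an unadjusted p under 0.05 these were 3 under vehicle, 2 after CCl4 and 3 in the interaction, and DESeq2 called 2, 1 and 1.

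Immune cells make and respond to interferon, and markers of several such cells rose with CCl4. The summed level of 10 Kupffer cell markers, the resident macrophages of the liver, was 385 and 250.9 CPM in NTC-Veh livers, 749 and 512 in sgBap1-Veh, 838, 703 and 1207 in NTC-CCl4 and 638, 947 and 767 in sgBap1-CCl4 livers. Both sgBap1-Veh livers were above both NTC-Veh livers, Cd5l was the most abundant, and no marker was at 0. Between genotypes under vehicle 0 of the 10 were called by edgeR, while 8 were higher at an unadjusted p under 0.05 and by DESeq2, with a median change of 0.95. With CCl4, 6 of the 10 rose in NTC livers, and 2 rose and 2 fell in sgBap1 livers, or 1 and 1 without sgBap1-CCl4 replicate 2. In the interaction 0 of the 10 were called by edgeR, 9 were lower at an unadjusted p under 0.05 and 5 by DESeq2, and all 10 were below 0 (median -1.20, or -1.35 without that liver). The 10 markers of monocytes and recruited macrophages summed to 151 and 133 CPM in NTC-Veh livers, 259 and 212 in sgBap1-Veh, 857, 999 and 1033 in NTC-CCl4 and 1125, 1300.1 and 934 in sgBap1-CCl4 livers, with Lyz2, an uncertain count, the most abundant. All 10 rose with CCl4 in each genotype, 9 in sgBap1 livers without sgBap1-CCl4 replicate 2, and 1, Csf1r, was called between genotypes under vehicle (1.06, adjusted p 0.0487). That call was lost without NTC-Veh replicate 1 (1.17), NTC-Veh replicate 2 (0.95), sgBap1-Veh replicate 1 (0.77), sgBap1-Veh replicate 2 (1.29), NTC-CCl4 replicate 1 (1.06), NTC-CCl4 replicate 2 (1.06), NTC-CCl4 replicate 3 (1.06), sgBap1-CCl4 replicate 1 (1.06) or sgBap1-CCl4 replicate 3 (1.06), and 15.1% of the exon length of Csf1r overlaps Hmgxb3 on the opposite strand. Under vehicle 5 of these 10 were higher in sgBap1 livers at an unadjusted p under 0.05, and DESeq2 called 5 higher. In the interaction 0 of these 10 were called by edgeR, 1 was higher and 5 were lower at an unadjusted p under 0.05 and DESeq2 called 4 lower, with a median of -0.53, or -0.66 without sgBap1-CCl4 replicate 2.

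Plasmacytoid dendritic cells are known as strong producers of type I interferon. Their 8 markers summed to 16.8 and 18.2 CPM in NTC-Veh livers, 21.0 and 17.4 in sgBap1-Veh, 35.4, 32.6 and 35.1 in NTC-CCl4 and 32.2, 36.8 and 31.7 in sgBap1-CCl4 livers. The CCl4 livers were all higher, the most abundant marker was Tcf4, which other liver cells also express, and 7 of 8 rose in NTC and 6 of 8 in sgBap1 livers, 5 of 8 without sgBap1-CCl4 replicate 2. The 10 markers of T and NK cells summed to 6.99 and 3.32 CPM in NTC-Veh livers, 11.2 and 10.6 in sgBap1-Veh, 9.31, 7.61 and 12.7 in NTC-CCl4 and 6.79, 10.5 and 10.6 in sgBap1-CCl4 livers, with Cd4 the most abundant. The NTC-Veh livers were the lowest, beside 1 sgBap1-CCl4 liver, and the other groups overlapped. With CCl4, 3 of these 10 rose in NTC livers and 0 in sgBap1 livers by edgeR (1 lower at an unadjusted p under 0.05, 0 by DESeq2), and under vehicle the median change between genotypes was 1.09 with 0 called by edgeR, 5 higher at an unadjusted p under 0.05 and 0 by DESeq2. Their interaction was below 0 in all 10, with a median of -1.20 (-1.36 without sgBap1-CCl4 replicate 2), 0 called by edgeR or DESeq2 and 3 lower at an unadjusted p under 0.05.

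The 5 neutrophil markers tested, of 6 listed, had 4 higher with CCl4 in each genotype, and the sum of the 6 was 10.3 and 5.54 CPM in NTC-Veh livers, 11.5 and 9.43 in sgBap1-Veh, 25.9, 34.5 and 34.4 in NTC-CCl4 and 36.4, 36.5 and 28.9 in sgBap1-CCl4 livers, with Csf3r, an uncertain count, the most abundant. The 6 markers of conventional dendritic cells summed to 13.2 and 15.8 CPM in NTC-Veh livers, 20.5 and 17.5 in sgBap1-Veh, 28.6, 27.4 and 33.8 in NTC-CCl4 and 27.7, 32.4 and 28.2 in sgBap1-CCl4 livers, with Itgax the most abundant. In both lists every CCl4 liver was above every vehicle liver. Of the dendritic cell markers 2 rose in NTC livers, and 2 rose and 3 fell in sgBap1 livers, 1 and 3 without sgBap1-CCl4 replicate 2.

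The 6 markers of sinusoidal endothelial cells summed to 185 and 169 CPM in NTC-Veh livers, 229 and 170.4 in sgBap1-Veh, 242, 239 and 254 in NTC-CCl4 and 235, 277 and 248 in sgBap1-CCl4 livers, with Stab1 the most abundant. Of these 4 rose in NTC livers, and 3 rose and 1 fell in sgBap1 livers, 3 and 0 without sgBap1-CCl4 replicate 2. The 6 markers of stellate cells summed to 217 and 259 CPM in NTC-Veh livers, 283 and 253 in sgBap1-Veh, 397, 500.3 and 408 in NTC-CCl4 and 465, 879 and 396 in sgBap1-CCl4 livers, with Dcn the most abundant. The highest stellate sum was that of sgBap1-CCl4 replicate 2, the liver with the fat-cell genes, and 4 of the 6 rose in NTC and 3 in sgBap1 livers, with and without that liver. Of the 8 hepatocyte markers 7 fell in NTC livers and 4 in sgBap1 livers, both counts unchanged without sgBap1-CCl4 replicate 2. In sgBap1 livers all 8 were below 0, 6 were lower at an unadjusted p under 0.05 and DESeq2 called 7 lower. How far these shifts in marker levels account for the levels of the interferon-stimulated genes was not tested.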

How the data were processed

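Bulk RNA-seq of 10 livers was used. The authors deposited Salmon's estimated counts (expected counts) per gene symbol, and the submitters' processing notes name STAR 2.7.6a, Salmon 1.4.0 and GRCm38. No strand setting is stated, so for genes given with values, opposite-strand overlaps above 10% of the exon length are named. After rounding to whole numbers, edgeR 4.0.16 (R 4.3.3) was used. Low genes were removed by filterByExpr (minimum count 10, minimum total 15), libraries of 33.05 to 52.2 M counts (1 M is 1e6) were scaled by TMM, dispersions came from estimateDisp, and 1 model of the 4 group means was fitted with glmQLFit (robust). Each pairwise comparison and the interaction went through a two-sided quasi-likelihood F test, p was adjusted over all genes tested by the Benjamini-Hochberg method, and the SE is the absolute log2 fold change over the square root of F. The scripts were tested on simulated data. DESeq2 1.42.0 served as an alternative, beside other scalings, filters, a replicate block and leaving out each liver. Same-numbered livers of different groups were not treated as pairs in the main model. The correlation of their deviations ran from -0.13 to 0.10, which with 2 or 3 livers in a group cannot settle whether they were paired. No 2 livers of a group were as close as counting noise alone would make them. All 10 sample columns were used.

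Named genes were the called members, up to 8 per direction by p, the 3 uncalled members with the largest change, a list of 18 members that are always given (Isg15, Ifit1, Ifit3, Ifit3b, Irf7, Irf9, Irf1, Stat2, Usp18, Mx1, Oas1a, Oasl2, Rsad2, Bst2, Ifi27, Adar, Eif2ak2 and Ddx58), up to 6 called genes per direction of each pathway list with Ifnar1, Ifnar2, Ifnb1, Ifng and Socs1, and Bap1 with the most abundant gene of each marker list. Further genes were named to account for all members, to spell out small counts or to show fat-cell genes, after their values were seen. The members and lists were chosen with earlier results of these data known. Sequences are from RefSeq. Spatial data and histology were not analysed.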

Additional observations from a re-analysis of the deposited data

How the results depend on the processing

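The counts of members called and the log2 fold changes of named genes were recomputed under other scalings, filters, tests and a replicate block, with each liver left out in turn, and with near-identical gene pairs summed, an alternative chosen after seeing the data. Without 1 liver, the members called ran from 25 to 32 (32 with all livers) for CCl4 in NTC livers, from 17 to 22 (21) for CCl4 in sgBap1 livers and from 0 to 1 (1) between genotypes under vehicle, and were 0 in every fit between genotypes after CCl4 and in the interaction. Leaving out 1 liver gave Bap1 changes from -0.99 to -0.84 under vehicle and from -0.75 to -0.57 after CCl4. Leaving out 1 liver turned the direction of these uncalled changes, listed for members only between genotypes and in the interaction. Each is given with its lowest and highest value. For CCl4 against vehicle these follow the value with all livers where no other place gives it. For CCl4 in NTC livers they were Stat2 (-0.037 to 0.11), Ifi35 (-0.095 to 0.30), Parp9 (0.050, -0.012 to 0.12) and Pias1 (-0.061, -0.11 to 0.011), and in sgBap1 livers Herc6 (-0.073 to 0.36), Ifi35 (-0.16 to 0.058), Tyk2 (-0.0033, -0.041 to 0.059), Tbk1 (-0.0081, -0.053 to 0.060), Pias1 (-0.026, -0.11 to 0.028) and Irgm1 (-0.11, -0.29 to 0.11). Between genotypes under vehicle they were Ddx58 (-0.26 to 0.079), Usp18 (-0.12 to 0.48), Herc6 (-0.006 to 0.43), Ifi35 (-0.00014 to 0.39), Mx2 (-0.27 to 0.086), Eif2ak2 (-0.075 to 0.09), Xaf1 (-0.057 to 0.36) and Dtx3l (-0.058 to 0.19). After CCl4 they were Ifih1 (-0.26 to 0.037), Irf7 (-0.26 to 0.039), Isg15 (-0.30 to 0.15), Usp18 (-0.23 to 0.067), Ifi35 (-0.036 to 0.14), Oas1a (-0.10 to 0.019), Oas1g (-0.15 to 0.12), Oas2 (-0.091 to 0.13), Samd9l (-0.30 to 0.0081), Trim30a (-0.34 to 0.060), Adar (-0.077 to 0.046) and Bst2 (-0.039 to 0.17). In the interaction they were Ddx58 (-0.26 to 0.075), Usp18 (-0.58 to 0.0095), Ifi35 (-0.35 to 0.042), Oasl1 (-0.033 to 0.45) and Mx2 (-0.22 to 0.15). A group left with 1 liver was assumed to vary like the others.

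Library size alone called 33 members for CCl4 in sgBap1 livers, 0 between genotypes under vehicle, and gave Bap1 changes of -0.91 (adjusted p 0.0510) under vehicle and -0.63 (0.0646) after CCl4. It turned the direction of Irf1 (0.39), Dtx3l (0.17, no call in either fit), Ifnar2 (0.041), Tyk2 (from -0.071 to 0.40), Ticam1 (from -0.074 to 0.40) and Pias1 (0.41) for CCl4 in NTC livers, and Irf9 (0.37), Stat2 (0.30), Ifi35 (0.42), Parp9 (0.17), Ifit3 (0.070) and Ifit3b (0.041), the pair without a call in either fit, Tyk2 (0.47), Tbk1 (0.47), Pias1 (0.46) and Irgm1 (0.37) in sgBap1 livers, each shift being about that of the median over all genes. Keeping every gene with at least 1 count turned Tyk2 (0.028), Tbk1 (0.024) and Pias1 (0.0061) in sgBap1 livers, and the replicate block turned Stat2 (-0.030) in NTC livers, without calls. Counted over all comparisons, members turned 9 times under library size alone. They turned 2 times each under the replicate block and with every gene of at least 1 count. For DESeq2, edgeR's older quasi-likelihood test, a mean of at least 10 counts and only the 2 groups compared, it was 1 time each. Under the replicate block 0 members were called between genotypes under vehicle, and Bap1 changed by -0.91 (0.0744) under vehicle and -0.66 (0.0552) after CCl4. With only the 2 groups compared, 0 members were called between genotypes under vehicle and Bap1 changed by -0.65 (0.0766) after CCl4, and summing pairs left 0 members under vehicle. DESeq2 called 4 members between genotypes under vehicle, 2 after CCl4 and 7 in the interaction. Beyond the scaling shift, the cause was not tested. Over all members, comparisons and alternatives, 3201 values kept their direction and side of the threshold, 70 lost a call, 43 gained a call, and 68 turned to the other side of 0, 63 of them with no call in either fit.

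With 2 or 3 livers in a group, differences between genotypes of the size seen here were mostly not called, which does not show that the levels were equal. Counts cover 1 time point and whole tissue, and the ligands are at or near the limit of 3 counts.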

Other observations

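The GTPases that interferon gamma induces, 18 genes of the Gbp, Irg and Tgtp families that are not members, were read beside them. The counts of 8 of the 18 (Gbp6, Gbp7, Gbp8, Gbp10, Gbp11, Igtp, Tgtp1 and Tgtp2) are uncertain, since over 10% of their 50-base stretches occur in another gene, so the 18 are not independent genes. Their median log2 ratio to the NTC-Veh mean was 0.21 and -0.21 in NTC-Veh, 0.66 and 1.15 in sgBap1-Veh, 0.54, -0.12 and 0.68 in NTC-CCl4 and 0.01, -0.17 and 0.11 in sgBap1-CCl4 livers, so the sgBap1-Veh livers were high and the sgBap1-CCl4 livers near the NTC-Veh level. With CCl4, 8 rose and 2 fell in NTC livers (median change 0.48), and 0 rose and 10 fell in sgBap1 livers (median -0.82, and 8 fell without sgBap1-CCl4 replicate 2). In sgBap1 livers 0 were higher at an unadjusted p under 0.05 or by DESeq2, while library size alone, which moved the median of all genes from 0.04 to 0.52, gave Irgm1 a change of 0.37. Between genotypes under vehicle 1, Gbp2b, was called by edgeR, 12 were higher at an unadjusted p under 0.05 and 8 by DESeq2, with a median of 0.86. Without sgBap1-CCl4 replicate 2 edgeR called 4. It called 0.892% of all genes tested there in either direction, against 0.406% with all livers. The call of Gbp2b was lost without NTC-Veh replicate 1 (2.60), NTC-Veh replicate 2 (1.91), sgBap1-Veh replicate 1 (2.24), sgBap1-Veh replicate 2 (2.18), NTC-CCl4 replicate 1 (2.21), NTC-CCl4 replicate 2 (2.21), sgBap1-CCl4 replicate 1 (2.21) or sgBap1-CCl4 replicate 3 (2.21). Between genotypes after CCl4, 0 were called by edgeR, 11 were lower at an unadjusted p under 0.05 and 4 by DESeq2. The median there was -0.50, with all 18 below 0. In the interaction 0 were called by edgeR, 14 were lower at an unadjusted p under 0.05 and 11 by DESeq2, with a median of -1.50 and all 18 below 0. Gbp2b was at 2.69 and 1.66 CPM in NTC-Veh livers, 9.87 and 10.4 in sgBap1-Veh, 0.725, 0.582 and 1.51 in NTC-CCl4 and 0.238, 0.496 and 0.531 in sgBap1-CCl4 livers. Of the 12 GTPase promoters at hand, 11 held the core of the interferon-stimulated response element, against 3.99% of all genes with a window. The letters TTCNNNGAA occurred in 6 of the 12, against 9.55%, and both occurred in 6, against 0.54%. The part of immune cells in these values was not tested.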
